A study of Mus musculus with 9 samples.

Results

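The genes described here are 10 C-type lectin receptors of mouse macrophages, chosen by name from a list of carbohydrate-binding receptors of these cells, out of 42454 genes in the deposited table. They were Clec10a, Mgl2, Clec7a, Clec4n, Clec4e, Clec4d, Clec4a1, Clec4a2, Clec4a3 and Clec12a, and all 10 passed the filter on low values and were tested. RNA sequencing was performed on colon lamina propria macrophages, sorted as Ly6C low and MHC class II positive cells. The mice were 6 weeks old and of 3 genotypes with 3 libraries each, namely p47phox-/-, gp91phox-/- and wild type (WT). The knocked-out genes, Ncf1 for p47phox and Cybb for gp91phox, encode subunits of the phagocyte NADPH oxidase, which makes superoxide, and the series title names reactive oxygen species and gut macrophage development as the subject. The labels name no treatment, strain background or littermate control, and do not say whether each library came from a separate mouse.

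C-type lectin receptors are surface proteins that bind sugars and glycolipids on microbes, dying cells and host glycoproteins. Activating members carry a short signalling motif or pair with the Fc receptor gamma chain, and then recruit the kinase SYK and the CARD9 adaptor complex. Inhibitory members carry a motif that recruits the phosphatases SHP-1 and SHP-2. In the gut they are known on macrophages and dendritic cells as sensors of fungi, mycobacteria and mucus sugars.

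Between 31141107 and 52797368 reads per library fell on genes, and all 10 receptors were abundant, with means above those of 75.5% (Clec12a) to 95.8% (Clec7a) of the 14404 genes tested. Values are normalized counts, that is, reads divided by a size factor for each library. Ncf1 averaged 3195 ± 510 normalized counts in p47phox-/- libraries, 13040 ± 793 in gp91phox-/- libraries and 9957 ± 918 in WT libraries (SD, n = 3 each), and was lower in p47phox-/- than in WT libraries (log2 fold change -1.65, limma adjusted p = 0.000348; -1.87 and 0.0078 without p47phox-/- replicates 2 and 3). Cybb was listed at 0 in all 9 libraries, so the gp91phox-/- labels could not be checked in this way. Replicates 2 and 3 of p47phox-/- had reads on 14323 and 14268 genes, against 15825 to 18760 genes in the other 7 libraries. The calls of receptors that rest on them are given with and without them, as are those of other named genes except Krt20 and Cdh1. The macrophage genes Csf1r (means of 106019, 112313 and 97203 normalized counts in p47phox-/-, gp91phox-/- and WT) and Adgre1 (40228, 48144 and 43659, in the same order) were high in every genotype, and neither passed the test in any comparison, while other macrophage markers did, as given below with the cell type markers.

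A pair of adjacent receptor genes on chromosome 11 encodes the macrophage galactose-type lectins, which bind terminal galactose and N-acetylgalactosamine and take up glycoproteins. Both were higher in p47phox-/- than in WT macrophages, and Mgl2 was also higher in gp91phox-/- than in WT macrophages. Mgl2 (chr11:70130329-70137550, plus strand, GRCm38) had 6909, 9301 and 7810.2 normalized counts in p47phox-/- libraries, 5787, 5073 and 4741 in gp91phox-/- libraries, and 3355, 1941 and 3042 in WT libraries. The 3 genotypes did not overlap, with every p47phox-/- library above every gp91phox-/- library, and every gp91phox-/- library above every WT library. The log2 fold change of Mgl2 was 1.55 (SE 0.19, 95% interval 1.13 to 1.97, limma adjusted p = 0.0039) in p47phox-/- versus WT, which is 2.94-fold. It was 0.94 (SE 0.19, 95% interval 0.52 to 1.36, limma adjusted p = 0.0118) in gp91phox-/- versus WT, which is 1.91-fold. Without p47phox-/- replicates 2 and 3 the log2 fold change in p47phox-/- versus WT was 1.35 and the call was lost (limma adjusted p = 0.137).

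Clec10a (chr11:70156197-70170834, plus strand) is the second of these lectins and starts 18.6 kb beyond the end of Mgl2. It had 3479.9, 4243 and 5062 normalized counts in p47phox-/- libraries, 3171, 3515 and 3066 in gp91phox-/- libraries, and 2329, 2443 and 1725 in WT libraries. Every library of either knockout lay above every WT library, and the ranges of the knockouts overlapped. The p47phox-/- libraries were higher than WT by a log2 fold change of 0.98 (SE 0.17, limma adjusted p = 0.0163). That call was lost without WT replicate 3 (limma adjusted p = 0.0849), without p47phox-/- replicate 3 (limma adjusted p = 0.0853), and without p47phox-/- replicates 2 and 3 together (log2 fold change 0.70, limma adjusted p = 0.332). The gp91phox-/- difference from WT was 0.60 (95% interval 0.23 to 0.97) and did not pass the test (limma adjusted p = 0.0526).

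The galactose-type lectins differed in level as well. Per kilobase of exon, the ratio of Mgl2 to Clec10a was 2.75, 3.03 and 2.14 in p47phox-/- libraries, 2.53, 2.00 and 2.14 in gp91phox-/- libraries, and 1.99, 1.10 and 2.44 in WT libraries, so Mgl2 was the more abundant in all 9. The ranges of the ratio overlapped between genotypes. The genes share sequence: of the 50-base windows of their transcripts, 9.02% of those of Clec10a and 13.1% of those of Mgl2 also occur in another gene, mostly in each other. The labels do not say what was done with reads that match several genes, so the split of reads between the pair is uncertain. Neither knockout difference was called in gp91phox-/- versus p47phox-/- (Mgl2 log2 fold change -0.62, limma adjusted p = 0.0657; Clec10a -0.38, limma adjusted p = 0.181).

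The promoter of Mgl2 is shown because Mgl2 was the receptor called against WT in both knockouts. The window is the 250 bases before the RefSeq start (chr11:70130107-70130356, plus strand, GRCm38.p6, sequence from RefSeq), read along the gene, and capitals mark GAGGAA or its reverse complement TTCCTC, the core bound by PU.1, the ETS factor of the macrophage lineage.
Mgl2: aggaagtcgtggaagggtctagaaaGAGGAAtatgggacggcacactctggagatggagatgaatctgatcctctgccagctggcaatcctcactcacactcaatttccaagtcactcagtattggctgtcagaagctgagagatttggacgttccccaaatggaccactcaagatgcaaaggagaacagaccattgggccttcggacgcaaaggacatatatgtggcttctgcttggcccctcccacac
Clec10a has no entry in the promoter table.

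**Figure D1:**
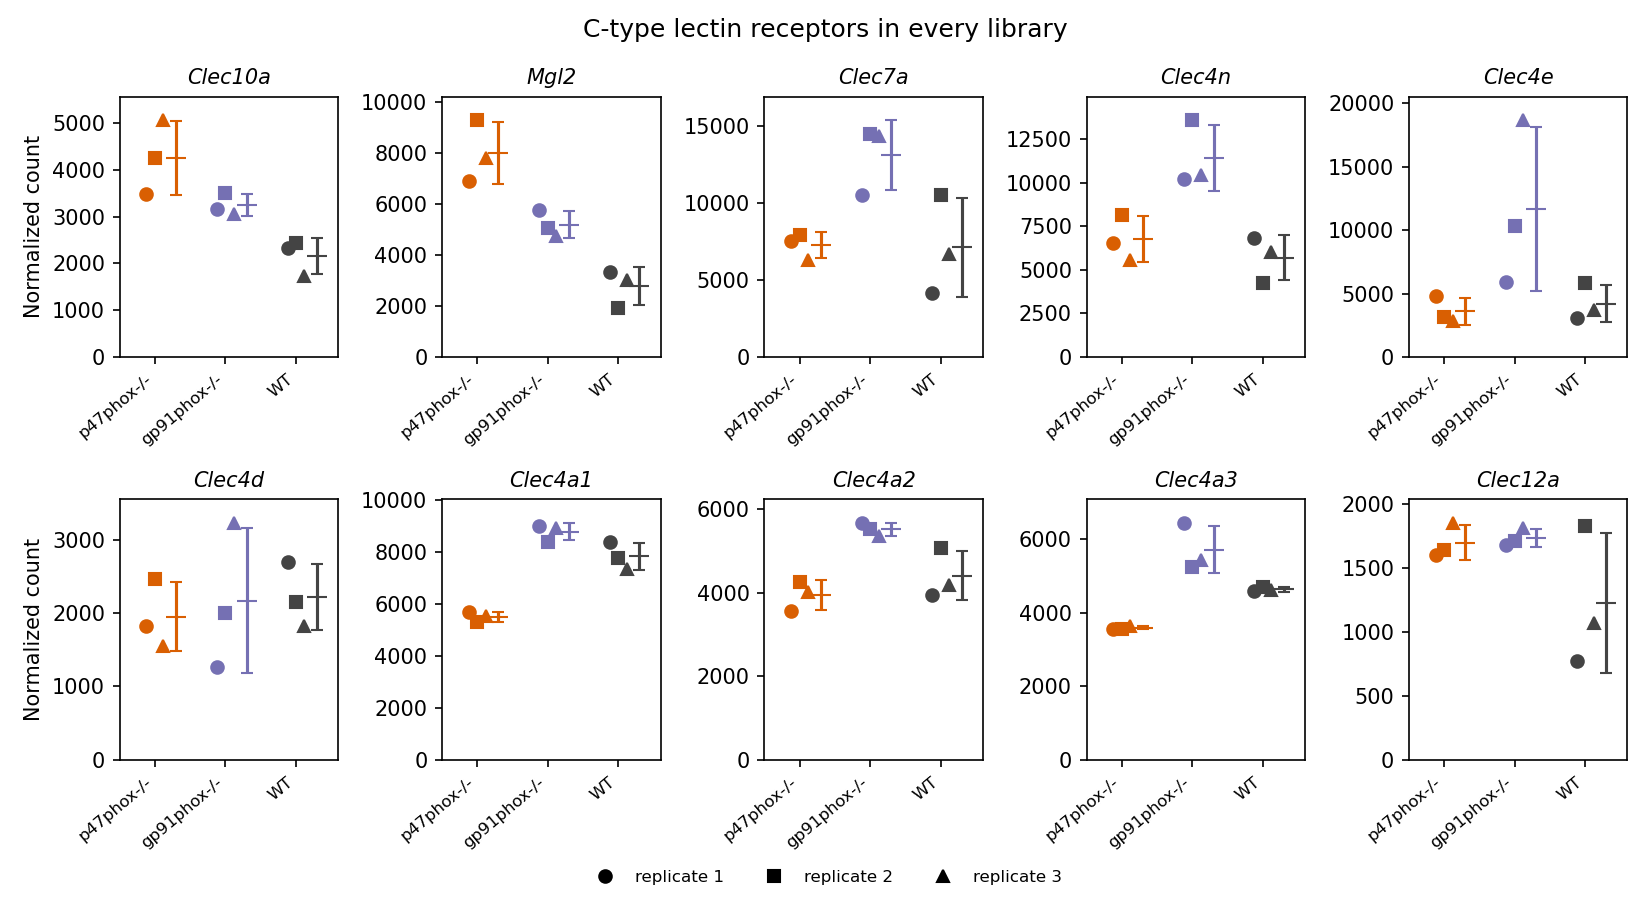
Normalized counts of each receptor, 1 panel per gene, in p47phox-/-, gp91phox-/- and WT libraries from left to right; symbols are replicates 1 to 3 and bars are mean ± SD (n = 3). Mgl2 separates the 3 genotypes with p47phox-/- at the top, while Clec4n and Clec4e are higher in all 3 gp91phox-/- libraries than in the other 6.

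Among the activating receptors, Clec4n, Clec4e and Clec7a were higher in gp91phox-/- than in WT macrophages, and none of these was called in p47phox-/- versus WT. Clec4n encodes dectin-2, which binds mannose-rich fungal sugars and signals through the Fc receptor gamma chain. Clec4n (chr6:123229843-123247021, plus strand) had 6562, 8151 and 5544 normalized counts in p47phox-/- libraries, 10215, 13576 and 10419.5 in gp91phox-/- libraries, and 6821, 4258 and 6023 in WT libraries. The 3 gp91phox-/- libraries lay above the other 6, and p47phox-/- and WT overlapped. On the log2 scale Clec4n was higher by 1.02 in gp91phox-/- versus WT (SE 0.20, 2.02-fold, limma adjusted p = 0.00811) and by 0.76 in gp91phox-/- versus p47phox-/- (SE 0.20, 1.70-fold, limma adjusted p = 0.0295). The difference between the knockouts was lost without any one of p47phox-/- replicates 1 and 3 and gp91phox-/- replicates 2 and 3 (limma adjusted p = 0.0570 to 0.123), and without p47phox-/- replicates 2 and 3 together (0.78, limma adjusted p = 0.158). In p47phox-/- versus WT the log2 fold change was 0.25 with a 95% interval of -0.17 to 0.68 (limma adjusted p = 0.569).

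Clec4e encodes Mincle, which binds the mycobacterial cord factor and a nuclear protein released by dead cells. Clec4e (chr6:123281789-123289870, minus strand) had 4833, 3153 and 2842 normalized counts in p47phox-/- libraries, 5941, 10344.5 and 18664 in gp91phox-/- libraries, and 3046, 5811 and 3733 in WT libraries. It varied most of the 10 within a genotype: the gp91phox-/- libraries differed by more than the whole range of the other 6, and the lowest of them stood just above the highest WT library. Its log2 fold change was 1.37 in gp91phox-/- versus WT (SE 0.36, 95% interval 0.59 to 2.15, limma adjusted p = 0.0388) and 1.58 in gp91phox-/- versus p47phox-/- (SE 0.36, 95% interval 0.79 to 2.36, limma adjusted p = 0.0167). The call against WT was lost without any one of WT replicates 1 and 3 and gp91phox-/- replicates 2 and 3 (limma adjusted p = 0.107 to 0.150), and the log2 fold change was 0.96 without gp91phox-/- replicate 3. The call against p47phox-/- was lost without p47phox-/- replicate 3 (1.42, limma adjusted p = 0.0630) and without replicates 2 and 3 together (1.11, limma adjusted p = 0.311). In p47phox-/- versus WT the log2 fold change of Clec4e was -0.20 (95% interval -0.98 to 0.58, limma adjusted p = 0.829).

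The promoter of Clec4e is shown as that of the receptor with the greatest fold change between the knockouts (chr6:123289872-123290121, minus strand, GRCm38.p6, sequence from RefSeq). The capitals again mark GAGGAA or TTCCTC, which occurs at bases -123 to -118 and -56 to -51, counted back from the start.
Clec4e: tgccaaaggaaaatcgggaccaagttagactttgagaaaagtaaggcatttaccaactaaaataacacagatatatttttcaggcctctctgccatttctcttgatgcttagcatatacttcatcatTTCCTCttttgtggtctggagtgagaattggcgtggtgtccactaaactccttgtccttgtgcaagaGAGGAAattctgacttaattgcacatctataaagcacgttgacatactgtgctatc
Clec4n has no entry in the promoter table.

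Clec7a encodes dectin-1, the receptor for fungal beta-glucan, which carries its own signalling motif. Clec7a (chr6:129461591-129472779, minus strand) is listed in the GENCODE M21 annotation as a polymorphic pseudogene, a class for genes intact in some mouse strains and disrupted in others. It had 7527, 7914 and 6307 normalized counts in p47phox-/- libraries, 10489, 14484 and 14321 in gp91phox-/- libraries, and 4125, 10502 and 6678 in WT libraries. The lowest gp91phox-/- library and the highest WT library almost coincided, so these groups overlapped, while every gp91phox-/- library lay above every p47phox-/- library. Clec7a had a log2 fold change of 0.97 in gp91phox-/- versus WT (SE 0.27, 95% interval 0.39 to 1.55), close to the threshold (limma adjusted p = 0.0490). That call was lost without any one of WT replicates 1 and 3, p47phox-/- replicates 1 and 3 and gp91phox-/- replicates 2 and 3 (limma adjusted p = 0.0624 to 0.166), and without p47phox-/- replicates 2 and 3 together (limma adjusted p = 0.0637). Between the knockouts it was 0.84 and not called (limma adjusted p = 0.0679). In p47phox-/- versus WT it was 0.13, with a 95% interval of -0.46 to 0.71 (limma adjusted p = 0.862).

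Clec4d encodes MCL, the partner with which Mincle forms a complex on the cell surface. Clec4d (chr6:123262111-123275265, plus strand) had 1831, 2469 and 1559 normalized counts in p47phox-/- libraries, 1271, 2009.8 and 3233 in gp91phox-/- libraries, and 2699, 2147 and 1819.6 in WT libraries. All 3 genotypes overlapped, and no comparison was called. Its log2 fold change was -0.19 in p47phox-/- versus WT (95% interval -0.82 to 0.43), -0.12 in gp91phox-/- versus WT (95% interval -0.74 to 0.51) and 0.08 in gp91phox-/- versus p47phox-/- (95% interval -0.55 to 0.70). Within the gp91phox-/- libraries Clec4d and Clec4e were both lowest in replicate 1 and highest in replicate 3.

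**Figure D2:**
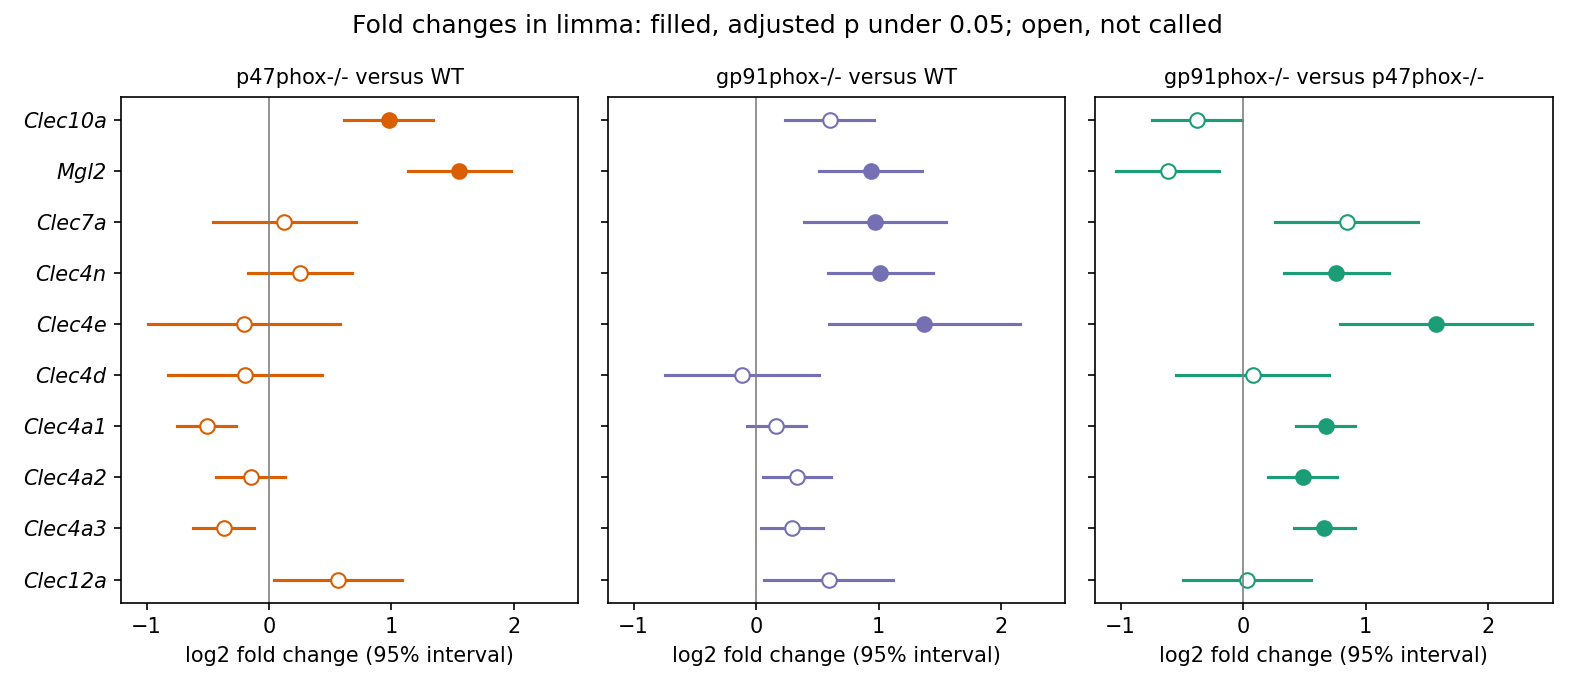
log2 fold change of each receptor in 3 comparisons, with the 95% interval from limma; filled points have an adjusted p under 0.05 and open points were not called. Clec10a and Mgl2 are the called receptors in p47phox-/- versus WT, and Clec4n and Clec4e are called in both comparisons of gp91phox-/-.

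Clec4a1, Clec4a2 and Clec4a3 belong to the dendritic cell immunoreceptor (DCIR) family, of which Clec4a2 encodes a receptor with an inhibitory motif. These genes varied little between replicates, and all were higher in gp91phox-/- than in p47phox-/- macrophages, with the WT means in between. Clec4a1 (chr6:122921848-122934619, plus strand) had 5676, 5302 and 5543 normalized counts in p47phox-/- libraries, 9016, 8399 and 8948 in gp91phox-/- libraries, and 8392, 7769 and 7361 in WT libraries. The gp91phox-/- libraries lay just above the WT libraries, and the p47phox-/- libraries lay well below both. Clec4a1 was higher by 0.67 on the log2 scale in gp91phox-/- versus p47phox-/- (SE 0.11, 1.60-fold, limma adjusted p = 0.00258). Against WT, neither knockout was called: the log2 fold change was -0.51 in p47phox-/- (SE 0.11, limma adjusted p = 0.0509) and 0.17 in gp91phox-/- (SE 0.11, limma adjusted p = 0.433).

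Clec4a3 (chr6:122952515-122969875, plus strand) had the narrowest ranges of the 10 in p47phox-/- and WT libraries. It had 3565, 3556 and 3636 normalized counts in p47phox-/- libraries, 6439, 5252 and 5428 in gp91phox-/- libraries, and 4582, 4705 and 4619 in WT libraries. The 3 genotypes did not overlap, with gp91phox-/- at the top and p47phox-/- at the bottom. Clec4a3 was higher by 0.66 on the log2 scale in gp91phox-/- versus p47phox-/- (SE 0.12, 1.58-fold, limma adjusted p = 0.00364). It was -0.37 in p47phox-/- versus WT (limma adjusted p = 0.153) and 0.29 in gp91phox-/- versus WT (limma adjusted p = 0.158), and neither was called.

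Clec4a2 (chr6:123106428-123143999, plus strand) had 3566, 4266 and 4018 normalized counts in p47phox-/- libraries, 5666, 5521 and 5361 in gp91phox-/- libraries, and 3949, 5061 and 4184 in WT libraries. The gp91phox-/- libraries lay above the other 6, and p47phox-/- and WT overlapped. Between the knockouts Clec4a2 was higher in gp91phox-/- by 0.49 on the log2 scale (SE 0.13, 1.40-fold, limma adjusted p = 0.0332), and the call was lost without any one of WT replicate 3, the p47phox-/- replicates 1 and 3 and the 3 gp91phox-/- replicates (limma adjusted p = 0.0505 to 0.101). Against WT it was -0.15 in p47phox-/- (limma adjusted p = 0.608) and 0.33 in gp91phox-/- (limma adjusted p = 0.149). Of the 50-base windows of Clec4a2 transcripts, 6.83% also occur in another gene, mainly the neighbouring Clec4a4 and Clec4b1. Without p47phox-/- replicates 2 and 3, the difference between the knockouts was 0.63 for Clec4a1 and 0.67 for Clec4a3 (limma adjusted p = 0.0622 and 0.0621) and 0.63 for Clec4a2 (limma adjusted p = 0.0914), so that all 3 calls were lost at sizes close to or above those in the full data.

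The promoters of Clec4a1 and Clec4a3 are shown because these receptors had the smallest adjusted p-values of the 10 between the knockouts. Sequences are from RefSeq (GRCm38.p6, plus strand): the 250 bases before the start of Clec4a1 (chr6:122921598-122921847) and the 100 bases before the second start of Clec4a3 (chr6:122952544-122952643). The 250 bases before the first start of Clec4a3 (chr6:122952265-122952514) hold neither GAGGAA nor TTCCTC and are not shown. Capitals mark GAGGAA or TTCCTC.
Clec4a1: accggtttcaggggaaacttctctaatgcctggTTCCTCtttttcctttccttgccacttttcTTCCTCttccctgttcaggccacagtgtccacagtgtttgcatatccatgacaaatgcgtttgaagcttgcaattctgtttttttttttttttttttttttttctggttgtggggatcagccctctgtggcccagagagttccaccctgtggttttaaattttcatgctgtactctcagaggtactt
Clec4a3: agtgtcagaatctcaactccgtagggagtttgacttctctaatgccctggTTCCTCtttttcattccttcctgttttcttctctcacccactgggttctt
The windows share a stretch of 17 bases, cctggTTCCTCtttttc, which lies at -222 to -206 in Clec4a1 and at -55 to -39 in Clec4a3.

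The promoter table matched 8 of the 10 receptors, with 10 windows of 250 bases. GAGGAA or TTCCTC was found in 8 of these windows, from 7 of the 8 genes, against 23.3% of all 32851 promoter windows of that length. The STAT6 palindrome (TTC and GAA with 4 bases between them) was found in 3 windows from 2 genes (5.85% of all windows). The AP-1 motif TGANTCA was found in 1 window (6.75% of all windows), the C/EBP motif TTGCNNAA in 2 (9.56%) and the NF-kB motif (GGGA and CC with 4 bases between them) in 2 (17.6%). Both strands were searched. The windows of Clec4a3 overlap each other, as do those of Clec7a, so the Clec7a matches were counted more than once among the windows. A match of letters is not a measured binding site.

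Clec12a encodes MICL, an inhibitory receptor that binds uric acid crystals released by dead cells. Clec12a (chr6:129342691-129365303, plus strand) had 1597, 1641 and 1849 normalized counts in p47phox-/- libraries, 1678, 1705 and 1808 in gp91phox-/- libraries, and 774, 1828 and 1067 in WT libraries. WT replicate 2 lay among the knockout libraries and the other WT libraries lay below all 6 of them. Its log2 fold change was 0.56 in p47phox-/- versus WT (95% interval 0.04 to 1.08, limma adjusted p = 0.299) and 0.59 in gp91phox-/- versus WT (95% interval 0.07 to 1.12, limma adjusted p = 0.173), and neither was called. Without WT replicate 2, both passed the test (log2 fold change 0.90, limma adjusted p = 0.0386, and 0.93, limma adjusted p = 0.0118). Between the knockouts it was 0.03 (95% interval -0.49 to 0.55, limma adjusted p = 0.951).

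**Figure D3:**
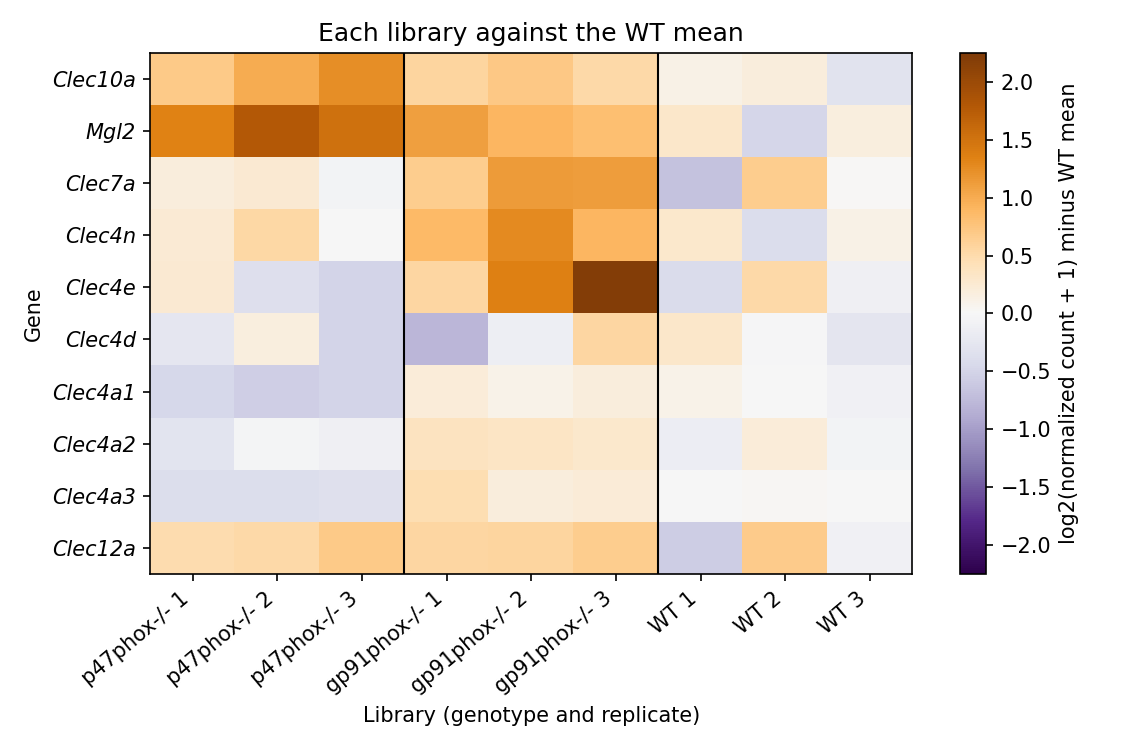
Each receptor in each library as log2(normalized count + 1) minus the WT mean, with p47phox-/-, gp91phox-/- and WT libraries from left to right; orange is above and purple below the WT mean. Mgl2 is orange in all 6 knockout libraries, and Clec4e in gp91phox-/- replicate 3 is the farthest from its WT mean.

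Over the 10 receptors, p47phox-/- versus WT gave 2 called higher and 0 lower, where 0.625% of all genes tested were called higher and 0.5% lower (1.12% in either direction). The median log2 fold change of the 10 was -0.01, against -0.02 over all genes tested. In gp91phox-/- versus WT, 4 were called higher and 0 lower (2.53% and 4.53% of all genes, 7.05% in all), with a median of 0.60 against 0.01 over all genes. In gp91phox-/- versus p47phox-/-, 5 were called higher and 0 lower (3.97% and 5.96% of all genes, 9.93% in all), with a median of 0.57 against 0.02. At an unadjusted p under 0.05, limma put 2 receptors lower in p47phox-/- than in WT, 0 lower in gp91phox-/- than in WT and 2 lower in gp91phox-/- than in p47phox-/-. The counts of lower calls were 0 in all 3 comparisons with edgeR, and 2, 0 and 1 with DESeq2, in that order. The comparisons with WT share the WT libraries, and gp91phox-/- versus p47phox-/- tests whether the effects of the knockouts differ.

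All 3 libraries of 1 genotype lay above all 3 of another for 2 receptors in p47phox-/- versus WT (9.25% of all genes tested), 7 in gp91phox-/- versus WT (15.1%) and 6 in gp91phox-/- versus p47phox-/- (13.6%). They lay below for 2 receptors (8.49% of all genes), 0 (18.2%) and 1 (17.3%), in the same order. In a two-sided exact permutation test, 3 libraries against 3 cannot give a p below 0.1, so that test cannot pass the threshold. The summed level of the 10 receptors was 44169 to 49995 normalized counts in p47phox-/- libraries, 59674 to 75988 in gp91phox-/- libraries and 40073 to 46466 in WT libraries. The gp91phox-/- sums lay above all the others, and p47phox-/- and WT overlapped.

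Levels of different receptors were compared per kilobase of exon, from the GENCODE M21 exon lengths. In p47phox-/- macrophages Clec4n (4755 normalized counts per kb), Mgl2 (3824) and Clec4a1 (3535) led, the range of Mgl2 overlapping each of the others, and separated from Clec7a (2748) and Clec4a3 (2702). Below them came Clec10a (1470.0), Clec4a2 (1349.9) and Clec4d (1221), then Clec4e (727) and last Clec12a (307), with no overlap between these 3 steps, although the lowest Clec4d library (974.7) and the highest Clec4e library (973.4) almost met. In gp91phox-/- macrophages Clec4n (8031) stood above the rest, followed by Clec4a1 (5640.3), Clec7a (4965) and Clec4a3 (4300.2). The next step ran from Mgl2 (2483) through Clec4e (2346), Clec4a2 (1885) and Clec4d (1358) to Clec10a (1121), each overlapping the next, with Clec12a (313) below. In WT macrophages the order was Clec4a1 (5033), Clec4n (4015), Clec4a3 (3493), Clec7a (2692), Clec4a2 (1503), Clec4d (1389.5), Mgl2 (1327), Clec4e (845) and Clec10a (747), and each of these neighbours overlapped. Clec12a (221) was the lowest in WT too. Mgl2 was thus in the leading step in p47phox-/- and seventh of 10 in WT.

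**Figure D4:**
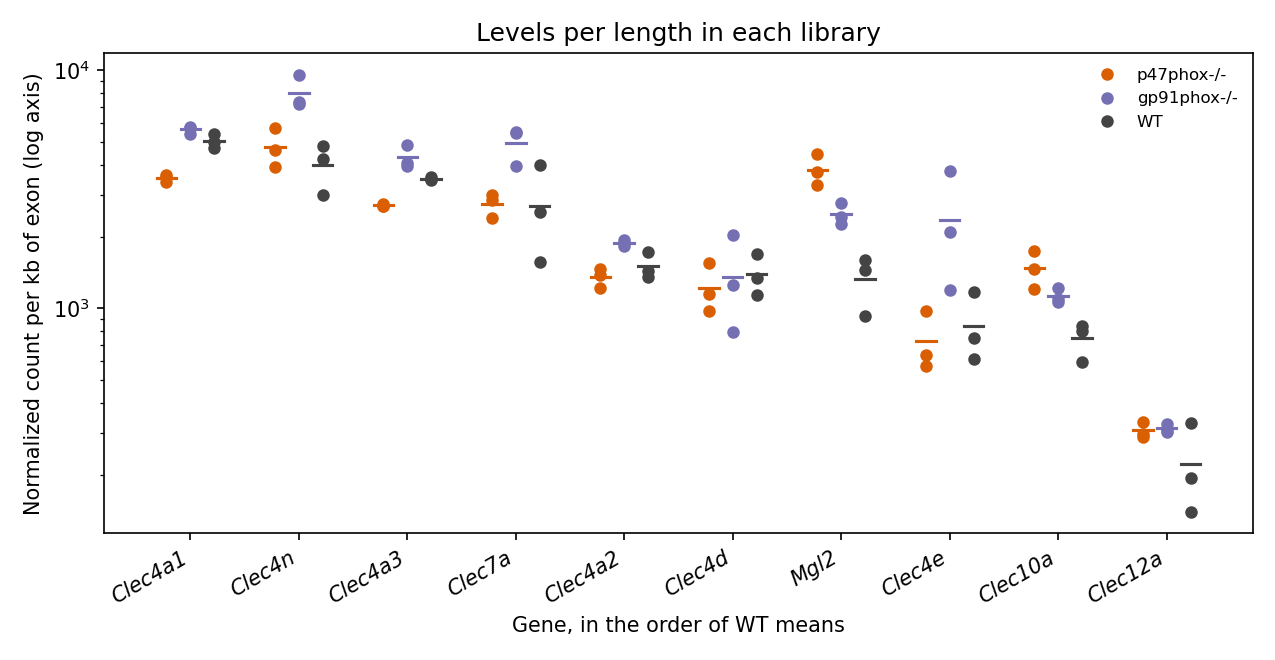
Normalized counts per kb of exon on a log axis, for each receptor in the order of WT means, with p47phox-/-, gp91phox-/- and WT libraries from left to right; points are libraries and bars are means. Clec12a is the lowest receptor in every genotype, and Mgl2 is the one that stands farthest above its WT level in p47phox-/- libraries.

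Of the signalling genes that act below these receptors (28 of 28 tested), 0 were called in p47phox-/- versus WT by limma and by edgeR, while DESeq2 called 2 lower, and 6 had an unadjusted limma p under 0.05. Against WT, gp91phox-/- libraries had 1 limma call, which was lower, where 7.05% of all genes tested were called. DESeq2 called 2 higher and 1 lower, and at an unadjusted limma p under 0.05, 4 were higher and 2 lower. The limma call was Syk, the kinase recruited by the activating receptors. Its means were 22083 normalized counts in gp91phox-/- and 32817 in WT libraries (log2 fold change -0.57, limma adjusted p = 0.0174). Between the knockouts limma called 1 higher and 1 lower in gp91phox-/- relative to p47phox-/-, where 9.93% of all genes tested were called. DESeq2 called 5 higher and 1 lower, and at an unadjusted limma p under 0.05, 8 were higher and 2 lower. In limma the Src-family kinase gene Fgr was higher (0.55, limma adjusted p = 0.0390). Nfkb1, which encodes an NF-kB subunit, was lower (-0.58, limma adjusted p = 0.0429). Without p47phox-/- replicates 2 and 3 both calls were lost, at 0.68 for Fgr and -0.70 for Nfkb1 (limma adjusted p = 0.111 and 0.165). Both were also lost without the mean-variance trend (0.104 and 0.114), and edgeR did not call Nfkb1 (adjusted p = 0.0775). The list's median log2 fold change was -0.11, 0.03 and 0.15 in the 3 comparisons. Fcer1g, the gamma chain that pairs with the proteins of Clec4n, Clec4e and Clec4d, had means of 16297, 20154.5 and 16205 normalized counts in p47phox-/-, gp91phox-/- and WT libraries and was called in no comparison. Card9 had means of 1529, 1788 and 1552 and was not called either.

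Among 43 other C-type lectin-domain receptors, 36 were tested. Over all genes tested, limma called 1.12% in p47phox-/- versus WT, in either direction. The share was 7.05% in gp91phox-/- versus WT and 9.93% in gp91phox-/- versus p47phox-/-. Of the 36 receptors, 1 was higher and 0 lower in p47phox-/- versus WT, and 3 were lower at an unadjusted limma p under 0.05 (0 called lower with edgeR, 1 with DESeq2). The gene was Cd209f, a mouse relative of DC-SIGN, with means of 1682 normalized counts in p47phox-/- and 668 in WT libraries (log2 fold change 1.33, limma adjusted p = 0.0045). Without p47phox-/- replicates 2 and 3 Cd209f was at 1.12 and was not called (limma adjusted p = 0.157). Of the same list, 5 were higher in gp91phox-/- than in WT: Olr1, an oxidized lipoprotein receptor (1.33), Clec5a, an activating receptor of myeloid cells (1.31), Clec2d (1.14), Cd209f (0.80) and Cd302 (0.76), with limma adjusted p-values of 0.00186 to 0.0218. In the same comparison 2 were lower, among them Cd209a (-3.17, limma adjusted p = 0.000137), a gene of monocyte-derived and conventional dendritic cells. Relative to p47phox-/-, 3 were higher in gp91phox-/-, among them Olr1 (1.55) and Clec5a (0.82), and 6 were lower, among them Cd209a (-3.54), Cd209b (-2.09), Colec12 (-1.15) and Clec3b (-1.10). Without p47phox-/- replicates 2 and 3, 0 were called higher and 2 lower, namely Cd209a (-3.25) and Colec12 (-1.52). Olr1 (1.47, limma adjusted p = 0.138) and Clec5a (0.73, limma adjusted p = 0.221) then lost their calls. The mannose receptor gene Mrc1, a marker of resident macrophages, had means of 56738, 58796.5 and 42080.0 normalized counts in p47phox-/-, gp91phox-/- and WT libraries and was not called.

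Markers of other cell types moved with the genotypes. For scale, limma called 0.625% of all genes tested higher and 0.5% lower in p47phox-/- versus WT. These shares were 2.53% and 4.53% in gp91phox-/- versus WT, and 3.97% and 5.96% in gp91phox-/- versus p47phox-/-. Fewer cells of a type and less RNA per cell cannot be told apart in such bulk samples. Of 13 conventional dendritic cell markers, cells in which several of these lectins are also known, 0 were called in p47phox-/- versus WT by limma and by edgeR (1 higher with DESeq2, and 3 with an unadjusted limma p under 0.05), 5 were lower in gp91phox-/- versus WT and 6 were lower in gp91phox-/- versus p47phox-/-, also without p47phox-/- replicates 2 and 3. Their summed level was 18218 to 24765 normalized counts in p47phox-/- libraries, 15876 to 18022 in gp91phox-/- libraries and 20543 to 21796 in WT libraries, and none was at 0 in all 3 libraries of a genotype. Flt3 averaged 28.7 normalized counts in gp91phox-/- and 341 in WT libraries (log2 fold change -3.38). In this comparison 8 of the 13 were not called, among them Irf8 (-0.01), Cadm1 (0.003), Batf3 (0.32), Clec9a (-0.25) and Xcr1 (-0.67). At an unadjusted limma p under 0.05, 7 were lower and 0 higher. Irf8 averaged 10977 normalized counts in gp91phox-/- and 11092 in WT libraries, and Cadm1 3505 and 3503. Irf8 and Cadm1 made up most of the summed level in these libraries. Of 14 B and plasma cell markers, 12 were lower in gp91phox-/- than in WT, with sums of 10738.0 to 11923.5 normalized counts in gp91phox-/- libraries and 30533 to 56446 in WT libraries. The same number was lower in gp91phox-/- than in p47phox-/-, where the sums were 29666 to 35495, and 10 were without p47phox-/- replicates 2 and 3. Of 14 fibroblast and smooth muscle markers, 3 were higher in p47phox-/- than in WT (1 without those replicates), 2 were higher in gp91phox-/- than in WT (Acta2, 0.80, and Sparc, 0.69) and 4 were lower in gp91phox-/- than in p47phox-/- (2 without those replicates). Their sums were 13635 to 20657 normalized counts in p47phox-/- libraries, 11010 to 13165 in gp91phox-/- libraries and 7940.5 to 10584 in WT libraries. In p47phox-/- versus WT, 11 of the 14 were higher and 0 lower at an unadjusted limma p under 0.05. There edgeR called 3 higher, DESeq2 9, and limma without the mean-variance trend 0. The median log2 fold change of the 14 was 0.86, against -0.02 over all genes tested. Of 11 epithelial markers, 3 were higher in gp91phox-/- than in p47phox-/-, among them Krt20 (2.75) and Cdh1 (1.88). The sums of the epithelial list were 968 to 2304 normalized counts in p47phox-/- libraries, 2325 to 4752 in gp91phox-/- libraries and 1865 to 4505 in WT libraries.

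Macrophage markers moved as well. Cx3cr1, the fractalkine receptor gene of gut macrophages, averaged 19152 normalized counts in gp91phox-/- and 2184 in p47phox-/- libraries (log2 fold change 3.74, limma adjusted p = 0.00164), and 4866 in WT libraries. Of the 15 macrophage markers, Itgam (0.79) and Fcgr1 (0.62) were also higher in gp91phox-/- than in p47phox-/-, and Cd68 was lower (-0.46). With Cx3cr1, limma called 3 higher and 1 lower there, where 3.97% and 5.96% of all genes tested were called. Without p47phox-/- replicates 2 and 3, Cx3cr1 (4.97) and Fcgr1 (0.91) were still called, while Itgam (0.54, limma adjusted p = 0.291) and Cd68 (-0.38, limma adjusted p = 0.334) were not. Cd163 was higher in p47phox-/- than in WT (0.99), but not called without those replicates (1.17, limma adjusted p = 0.0526). Fcgr1 was higher in gp91phox-/- than in WT (0.65). The sums of the macrophage markers overlapped between all 3 genotypes. Of 9 monocyte markers, the sums were 31316 to 47141 normalized counts in p47phox-/- libraries, 30822 to 40069.7 in gp91phox-/- libraries and 21707 to 37295 in WT libraries, which overlapped. In gp91phox-/- versus p47phox-/- limma called 2 of the 9 higher and 1 lower, where 3.97% and 5.96% of all genes tested were called. Their median log2 fold change there was -0.26, against 0.02 over all genes tested. F13a1 (-0.52) and Ly6c2 (-0.69) were lower in that comparison and not called. F13a1 was higher in p47phox-/- than in WT (0.98), but not called without p47phox-/- replicates 2 and 3 (1.12, limma adjusted p = 0.0790). In gp91phox-/- versus p47phox-/- the monocyte chemokine receptor gene Ccr2 was higher (1.30; 1.37 and limma adjusted p = 0.0924 without those replicates), while Ly6c2 averaged 406, 286 and 368 normalized counts in p47phox-/-, gp91phox-/- and WT. The part of these markers in the receptor results was not tested.

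Position and likeness were also described. The 8 receptors on chromosome 6 lie within 6.55 Mb, and the 6 Clec4 genes among them within 368 kb, yet the neighbours Clec4d and Clec4e, at one end of that stretch, differed in whether they were called. By Pearson correlation of log2 values over the 9 libraries, among 10133 other genes with a mean of at least 100 normalized counts, the gene most like Mgl2 was Sult1a1 (r = 0.975) and the one most like Clec10a was Slc25a4 (r = 0.973). The most like Clec7a was Skap2 (0.987), the most like Clec4n was Snx16 (0.972) and the most like Clec4e was Olr1 (0.971), itself a lectin-domain receptor. For the DCIR family they were Gskip for Clec4a1 (0.997), H1f0 for Clec4a2 (0.944) and Pmaip1 for Clec4a3 (0.966). These values describe 9 libraries that fall into 3 genotypes and share size factors, and each is the highest of many.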

How the data were processed

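Paired-end RNA sequencing was run on 9 libraries (3 genotypes, 3 libraries each). Per the labels' protocols and the submitters' processing notes, base calls went through bcl2fastq 2.19 and Cutadapt, STAR 2.5.2b aligned the reads to mm10, featureCounts counted them, and DESeq2 was used. The deposited file holds normalized counts, a signal made by the authors from reads and size factors. Every value (100%) came out as a whole read within a tolerance of 0.01 once multiplied by its library's size factor, 1.05 to 1.66. The counted annotation, the strand and the treatment of multi-mapping reads are not given. Separate animals are not stated, so the p-values describe spread among these libraries, which may be technical.

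The test was limma 3.58.1 (R 4.3.3) on log2(normalized count + 1), for the 14404 genes that reached 10 normalized counts in 3 or more libraries. All 9 libraries entered 1 fit with a mean-variance trend, p-values were adjusted by Benjamini-Hochberg over all genes tested, and a gene was called at an adjusted p under 0.05. A fold change on this scale understates that of low genes. The steps were tested on simulated data. Alternatives were pseudocounts of 0.5 and 5, no filter or a minimum of 50, TMM scaling, fits of just the pair of groups compared, a replicate block, no trend, array weights, count tests on the recovered reads (edgeR 4.0.16, DESeq2 1.42.0), leaving out each library, and leaving out p47phox-/- replicates 2 and 3 together.

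All members are named. Other genes are named from lists, up to 6 called members per list and comparison by fold change with a mean of at least 50, and by likeness. A called gene of the other-receptor list is not reported here. Csf1r, Adgre1, Ly6c2, Fcer1g, Card9, Mrc1, Irf8, Cadm1, Batf3, Clec9a and Xcr1 were added after their values were seen. The members and lists were chosen with earlier results of these data known. Gene positions and lengths are from GENCODE M21 (GRCm38), promoters from RefSeq (GRCm38.p6).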

Additional observations from a re-analysis of the deposited data

Results flagged for a closer look

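For 5 of the 10 receptors the effects of the knockouts differed from each other, by the test of gp91phox-/- versus p47phox-/- in limma. The log2 fold change was 1.58 for Clec4e (adjusted p = 0.0167), 0.76 for Clec4n (0.0295), 0.67 for Clec4a1 (0.00258), 0.66 for Clec4a3 (0.00364) and 0.49 for Clec4a2 (0.0332). Of all genes tested, 3.97% were called higher and 5.96% lower in this comparison (9.93% in either direction). In each of the 5 genes all 3 gp91phox-/- libraries lay above all 3 p47phox-/- libraries. The genes were picked by the test on these same libraries, so this lack of overlap is no separate support. For Clec4a1 and Clec4a3 the knockouts lay on opposite sides of WT, while neither difference from WT was called. In p47phox-/- replicate 1 alone, with replicates 2 and 3 left out, the log2 fold changes were 1.11, 0.78, 0.63, 0.67 and 0.63 in the same order, and 0 of the 5 were called by limma (4 of the 10 receptors had an unadjusted p under 0.05).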

How the results depend on the processing

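Of 30 receptor results, 11 were called, 0 of these turned direction and 0 were called in all 21 alternatives. Of 19 not called, 8 were called in some alternative and 5 turned direction. Called genes were 162 in p47phox-/- versus WT, and 101 with only those groups, 52 without the trend, 678 with DESeq2, 16 without p47phox-/- replicates 2 and 3, and 47 to 235 leaving out 1 library. Receptors numbered 2, and 0 without the trend, 4 with DESeq2 (2 lower, Clec4a1 and Clec4a3), 0 without those replicates and 1 to 3 leaving out 1 library. In gp91phox-/- versus WT 1016 genes became 596 without the trend, 2319 with array weights, 1754 with DESeq2 and 520 to 1543 leaving out 1 library, and 4 receptors became 2 without a filter, 0 without the trend, 7 with array weights and 2 to 5 leaving out 1 library. In gp91phox-/- versus p47phox-/- 1430 genes became 898 without the trend, 2276 with DESeq2, 441 without p47phox-/- replicates 2 and 3 and 761 to 1661 leaving out 1 library, and 5 receptors became 2 without the trend, 0 without those replicates and 2 to 7 leaving out 1 library. Where limma called 0 receptors, 4, 4, 7 and 4 had an unadjusted p under 0.05 in the order given, and edgeR called 2, 3 and 5 in the 3 comparisons. Without the trend Mgl2 had an adjusted p of 0.0505 in p47phox-/- and 0.0706 in gp91phox-/- versus WT. Clec4e in p47phox-/- versus WT turned to 0.26 without p47phox-/- replicates 2 and 3. Leaving out 1 library, the ranges that crossed 0 were -0.21 to 0.46 (Clec7a) and -0.43 to 0.059 (Clec4e) in p47phox-/- versus WT, -0.46 to 0.22 (Clec4d) in gp91phox-/- versus WT, and -0.26 to 0.41 (Clec4d) and -0.011 to 0.095 (Clec12a) in gp91phox-/- versus p47phox-/-. TMM scaling moved the median of all genes in gp91phox-/- versus p47phox-/- to 0.11. The labels state no pairing by replicate number. Deviations of same-numbered libraries correlated at -0.04 to 0.08, and 5 of 9 libraries matched their own number best. So few libraries cannot decide whether a weak pairing was present. With the replicate number as a block 127, 877 and 1238 genes and 2, 4 and 6 receptors were called (Clec7a between the knockouts added, adjusted p = 0.0350). The causes were not tested. With 1 library left in p47phox-/-, its spread was assumed to be that of the other groups.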
